A study of Mus musculus with 8 samples.

Results

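Cell cycle transcripts were examined in mouse intraepithelial lymphocytes, the leukocytes that lie between the epithelial cells of the gut, as a set of 35 genes of the cell cycle chosen by their symbols. All 35 were found among the 52661 genes of the transcript tables, and all 35 passed the filter on low counts that left 18631 genes for testing. The cells came from C57BL/6 mice, had been sorted on the pan-leukocyte surface protein CD45 and were kept for 24 h in RPMI medium with 10% serum. RNA was sequenced from 4 libraries of cells given recombinant osteopontin at 2 µg/ml, a secreted phosphoprotein that binds CD44 and integrins, and from 4 libraries of cells given none, called null. The libraries of each group are named 1, 2, A and B. The sources used here give neither the age or sex of the mice nor the source of the osteopontin, nor whether each library is a culture or an animal of its own. Every p-value therefore rests on library-to-library spread, part of which may be technical.

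A cell that enters the cycle first activates E2F transcription factors and cyclin E, which switch on genes for licensing of replication origins (Cdc6, Cdt1 and the MCM helicase) and for DNA synthesis. Genes of mitosis, such as those for cyclin B, Cdk1, the Aurora kinases and the kinesins, are switched on later, through promoter elements bound by NF-Y and by the MuvB and FoxM1 complexes, and their transcripts are largely absent from resting cells. Intraepithelial T cells in the unchallenged gut are antigen-experienced and mostly out of cycle.

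Stretches of 6 member promoters are printed to show elements that some replication and mitosis genes hold. RefSeq promoter windows (GRCm38.p6, 250 bases before to 50 after the start) were at hand for 28 members. Windows were not matched for Kif20a, Stmn1, Ccna2, Mcm4, Ccne2, Tpx2 and Aurkb. Each stretch runs from 160 bases before the start to 20 after it, 5′ to 3′ on the strand of the gene, with E2F words (TTTGGCGC, TTTCCCGC, TTTCGCGC or TTTGCCGC), cell cycle homology region words (TTTGAA or TTCGAA) and CCAAT boxes in capitals on either strand. The stretches lie at chr8:75109349-75109528 for Mcm5, chr1:128359686-128359865 for Mcm6, chr10:69352893-69353072 for Cdk1, chr4:118437324-118437503 for Cdc20, chr9:70421535-70421714 for Ccnb2 and chr7:135716360-135716539 for Mki67. Mcm5 is on the plus strand and the other 5 genes are on the minus strand.
Mcm5: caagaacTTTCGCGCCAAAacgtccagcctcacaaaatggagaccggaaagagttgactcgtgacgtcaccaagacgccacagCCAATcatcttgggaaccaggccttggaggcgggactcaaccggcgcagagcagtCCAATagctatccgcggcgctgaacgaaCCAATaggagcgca
Mcm6: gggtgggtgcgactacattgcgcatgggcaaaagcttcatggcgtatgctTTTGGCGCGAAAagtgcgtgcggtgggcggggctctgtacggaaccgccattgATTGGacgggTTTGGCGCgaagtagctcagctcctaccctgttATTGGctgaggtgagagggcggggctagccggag
Cdk1: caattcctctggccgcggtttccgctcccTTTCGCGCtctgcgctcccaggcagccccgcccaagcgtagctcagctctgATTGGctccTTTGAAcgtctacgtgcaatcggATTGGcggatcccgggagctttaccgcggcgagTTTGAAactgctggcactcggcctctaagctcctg
Cdc20: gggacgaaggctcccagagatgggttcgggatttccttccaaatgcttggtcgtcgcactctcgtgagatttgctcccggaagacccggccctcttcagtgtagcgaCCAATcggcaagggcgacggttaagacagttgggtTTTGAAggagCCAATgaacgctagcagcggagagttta
Ccnb2: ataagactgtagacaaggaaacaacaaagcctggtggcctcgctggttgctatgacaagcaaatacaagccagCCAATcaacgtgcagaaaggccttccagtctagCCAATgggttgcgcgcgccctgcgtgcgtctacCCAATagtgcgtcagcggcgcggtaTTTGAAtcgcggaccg
Mki67: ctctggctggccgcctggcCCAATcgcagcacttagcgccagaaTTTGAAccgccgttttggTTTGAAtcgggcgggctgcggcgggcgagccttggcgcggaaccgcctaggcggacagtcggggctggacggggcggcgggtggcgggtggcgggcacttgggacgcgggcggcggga
Mcm5 and Mcm6, which encode helicase subunits, each held a pair of overlapping E2F words on opposite strands, and Cdc20, Ccnb2 and Mki67 held the homology region word with CCAAT boxes and no E2F word in the stretch. Cdk1 held all 3 elements. An E2F word stood in the windows of 7 members, 6 of them licensing or MCM genes (Cdc6, Cdt1, Mcm3, Mcm5, Mcm6 and Mcm7), which is 24.1% of the 29 member windows (Mcm7 has 2) against 2.26% of all 32851 windows. An E2F word stood in 0 of the 4 DNA synthesis genes and 0 of the 2 G1/S regulators with a window. The homology region word was present in 48.3% of member windows, against 19.2% of all windows, and in all 4 genes of the spindle checkpoint and anaphase promotion. CCAAT was found in 79.3% of member windows and 37.4% of all windows, and in 1 member window a CCAAT box overlapped an E2F word. A match describes the letters in the window and is no evidence of binding.

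Cell cycle transcripts were present in both groups, led by Pcna and the MCM genes. In sums over all transcripts of a gene, the order did not follow role throughout. The centromere gene Cenpa stood above Mcm2 to Mcm5, and the replication genes Cdc6, Rrm2 and Tyms were scarce. On the TPM scale (transcript abundance corrected for length, the authors' values summed per gene, mean of 8 libraries), Pcna, the sliding clamp of DNA polymerase, stood at 116 TPM and Mcm7 at 115 TPM. Below them, Mcm6 had 70.3 TPM, Cenpa, the histone H3 variant of centromeres, 43.9 TPM, Mcm4 37.7 TPM, Cdt1 34.2 TPM, Mcm2 31.0 TPM, Mcm5 30.2 TPM and Mcm3 23.1 TPM. Most Cenpa reads lay on transcripts that do not encode the protein. On coding transcripts alone Cenpa had 6.83 TPM, below Mcm2 to Mcm5 (19.8 to 37.7 TPM). Counted in that way, Pcna had 102 TPM, Mcm7 80.6 TPM, Tyms 2.22 TPM and Cdk1 1.96 TPM, so Pcna and Mcm7 were close only in sums over all transcripts. Over all transcripts again, Rrm1, the large subunit of ribonucleotide reductase, had 16.5 TPM, whereas Rrm2, its cell-cycle-regulated small subunit, had 3.32 TPM. At the low end were Ccna2 (cyclin A2) at 1.11 TPM, Kif20a, a kinesin of cytokinesis, at 1.014 TPM, Cdc6, which loads MCM onto origins, at 0.642 TPM, and Bub1, a spindle checkpoint kinase, at 0.256 TPM. Neighbours in this order overlapped in their ranges over the 8 libraries at every step except 2, from Mcm7 (95.2 to 138 TPM) to Mcm6 (56.6 to 90.1 TPM) and from Mcm6 to Cenpa (37.7 to 50.4 TPM). Summed by role, the 8 licensing and MCM genes came to 342 TPM, the 4 DNA synthesis genes to 143 TPM and the 6 spindle and centromere genes to 63.5 TPM, of which Cenpa made up most. The 4 mitotic kinases and passenger genes came to 15.9 TPM and the 4 cyclins and Cdk1 genes of S, G2 and M phase to 10.3 TPM.

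**Figure D1:**
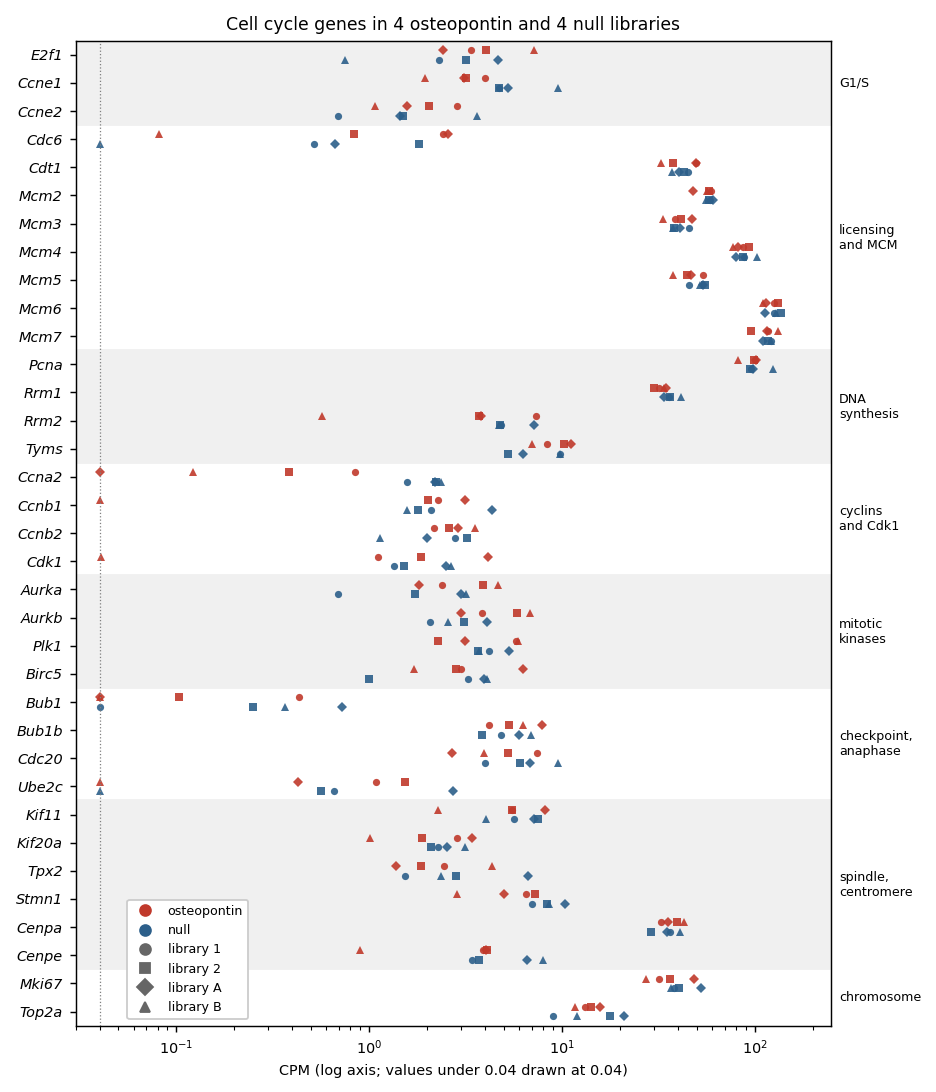
Level in CPM of each of the 35 genes in each library (log axis, genes grouped by role, 1 row per gene, colour for group, symbol for library name; values under 0.04 CPM are drawn at the dotted line). MCM genes, Pcna, Cdt1, Rrm1, Cenpa and Mki67 sit to the right with tightly packed points, and only Ccne1 and Ccna2 have all 4 osteopontin points left of all 4 null points.

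No member differed between osteopontin and null cells past the test. With edgeR's quasi-likelihood test and Benjamini-Hochberg adjustment over all tested genes, 0 of 35 members were called at an adjusted p under 0.05, beside 0 of 18631 genes in all (0.00%; 732 genes, or 3.93%, had an unadjusted p under 0.05), and the adjusted p of every member was 1.00. Limma voom called 0 genes. DESeq2 called 76 of 22206 genes (0.342%) and 0 members, with 0.291 for Ccna2 as the smallest adjusted p of a member. At an unadjusted p under 0.05, edgeR gave 3 members (Ccne1, Ccna2 and Stmn1), all with lower fitted values in osteopontin cells, where 2.08% of all genes were fitted lower and 1.85% higher at that level. All 4 osteopontin libraries lay below all 4 null libraries for 2 members, Ccne1 and Ccna2, against 1.58% of all tested genes, and for 0 members they lay above, against 1.89% (3.47% in either direction). Fitted values were higher with osteopontin for 12 members and lower for 23, also 23 under both other scalings of library size, with a median log2 fold change of -0.11, beside a median of 0.00 and 49.9% lower over all genes. The members' median was 0.055 with only libraries 1 and 2 of each group and -0.20 with only A and B. The count fitted lower was 13 with only libraries 1 and 2, and 23 with only A and B. With 1 library left out it ran from 18 to 27. In bulk RNA of this kind, fewer cycling cells and less RNA per cycling cell cannot be told apart.

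**Figure D2:**
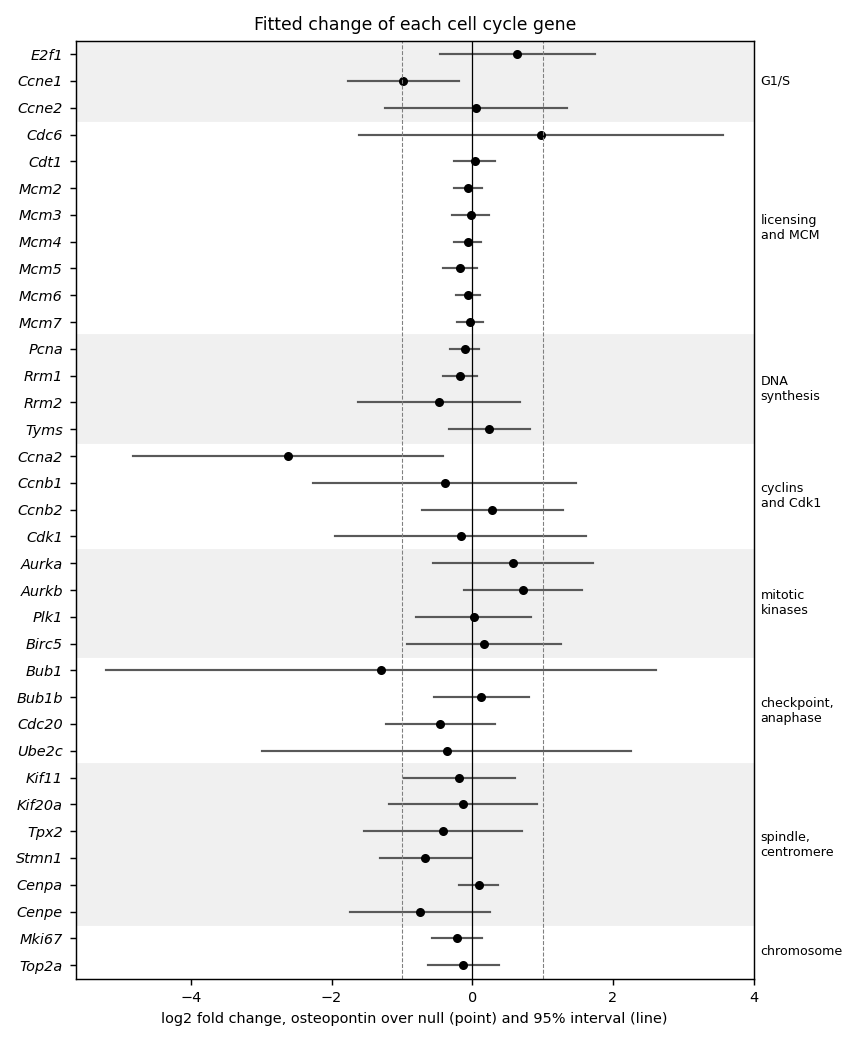
Fitted log2 fold change, osteopontin over null, of each gene (point) with its 95% interval (line), grouped by role; dashed lines mark 2-fold changes. The intervals of the MCM genes are short and include 0, while those of Bub1, Cdc6, Ube2c and Ccna2 span several units.

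Among the G1/S regulators, Ccne1 was the member with the smallest p. Ccne1 (chr7:38097984-38107534, minus strand, GRCm38) encodes cyclin E1, which activates Cdk2 at the start of S phase. It had 4.01, 3.19, 3.10 and 1.95 CPM (the gene's reads relative to the TMM-scaled total of the library) in osteopontin libraries 1, 2, A and B, against 4.71, 4.73, 5.23 and 9.56 CPM in null libraries 1, 2, A and B. The groups did not overlap, and null B stood well above the other 3 null libraries. The means were 3.06 ± 0.849 CPM with osteopontin and 6.05 ± 2.35 CPM without (SD, n = 4 each), a log2 fold change of -0.98 ± 0.37 (SE) with an edgeR p of 0.0178 before adjustment and 1.00 after it. Ccne2, encoding the sister cyclin E2, had 2.86, 2.04, 1.58 and 1.08 CPM with osteopontin and 0.692, 1.49, 1.45 and 3.65 CPM in null libraries, so its groups overlapped. E2f1, the activating transcription factor of S-phase genes, ranged over 2.43 to 7.15 CPM with osteopontin and 0.748 to 4.65 CPM in null libraries.

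The MCM genes and Cdt1 were among the best-measured members. Mcm2 to Mcm7 encode the 6 subunits of the replicative helicase, which Cdc6 and Cdt1 load onto origins in G1. Mcm6 (chr1:128331590-128359664) had 127, 132, 115 and 111 CPM with osteopontin, against 127, 137, 113 and 129 CPM in null libraries. Its log2 fold change was -0.06 with a 95% interval of -0.23 to 0.11. Mcm7 (chr5:138164583-138172422) had 117, 95.5, 116 and 133 CPM with osteopontin and 121, 117, 111 and 122 CPM in null libraries, with an interval of -0.22 to 0.16. For both subunits the groups overlapped throughout and the interval left out a change of 1.5-fold in either direction. Mcm5, whose promoter stretch is printed above, had 53.9, 44.8, 46.5 and 37.8 CPM with osteopontin and 45.6, 55.4, 53.9 and 52.0 CPM in null libraries, a log2 fold change of -0.18 (95% interval -0.42 to 0.07). The lowest Mcm5 value was that of osteopontin B. Mcm2, Mcm3 and Mcm4 had fitted log2 fold changes between -0.07 and -0.02, and Cdt1 had 0.03 (95% interval -0.26 to 0.32). Cdc6 was far scarcer than its partners, at 2.43, 0.838, 2.55 and 0.0812 CPM with osteopontin and 0.519, 1.81, 0.669 and 0.00 CPM in null libraries, with both B libraries lowest in their group. Its log2 fold change of 0.98 had an interval from -1.61 to 3.56.

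DNA synthesis genes split in the same way between well-measured and scarce. Pcna (chr2:132249162-132253314) had 101, 99.2, 102 and 82.4 CPM with osteopontin, against 95.8, 95.2, 98.2 and 124 CPM in null libraries. The B libraries were the outlying ones in both groups, low with osteopontin and high without, and the log2 fold change was -0.11 (95% interval -0.31 to 0.10). Rrm1 stood at 32.7 ± 2.07 CPM with osteopontin and 36.9 ± 3.23 CPM in null libraries (SD, n = 4 each), with an interval of -0.42 to 0.07. Rrm2, the cell-cycle-regulated small subunit of ribonucleotide reductase, had 7.34, 3.71, 3.82 and 0.568 CPM with osteopontin and 4.86, 4.77, 7.19 and 4.72 CPM in null libraries. Osteopontin B held 28 estimated reads of Rrm2, and the 95% interval of the log2 fold change was wide (-1.63 to 0.67). Tyms, thymidylate synthase, averaged 9.21 ± 1.88 CPM with osteopontin and 7.78 ± 2.34 CPM in null libraries (SD, n = 4 each).

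Ccna2 had the largest fitted change of the 35 genes and few reads. Ccna2 (chr3:36564865-36572150, minus strand) encodes cyclin A2, which works with Cdk2 in S phase and with Cdk1 on the way to mitosis. It had 0.842, 0.382, 0.00 and 0.122 CPM in osteopontin libraries 1, 2, A and B, or 60, 26, 0 and 6 estimated reads, against 1.58, 2.23, 2.20 and 2.36 CPM in null libraries. All osteopontin values were below all null values, and osteopontin A held no read, where 3 reads would be 0.0516 CPM. The means were 0.337 ± 0.373 CPM with osteopontin and 2.09 ± 0.35 CPM without (SD, n = 4 each), and the log2 fold change was -2.62 ± 1.04 (SE, 95% interval -4.82 to -0.42), with an edgeR p of 0.0228 before adjustment and 1.00 after it. For its partner kinase the groups overlapped. Cdk1 had 1.11, 1.87, 4.13 and 0.0406 CPM with osteopontin and 1.35, 1.52, 2.50 and 2.67 CPM in null libraries, so its highest and its lowest values were both in osteopontin libraries. Ccnb1, cyclin B1, had 2.28, 2.02, 3.14 and 0.0203 CPM with osteopontin, the last from 1 read, and 2.10, 1.79, 4.34 and 1.58 CPM in null libraries. Ccnb2, cyclin B2, ranged over 2.17 to 3.53 CPM with osteopontin, where osteopontin B was the highest, and 1.13 to 3.23 CPM in null libraries.

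The mitotic kinases were the only role in which every fitted value was higher with osteopontin, by a median log2 fold change of 0.37, although Plk1 and Birc5 changed sign under other settings and none of the 4 passed the test. Aurkb, the kinase of the chromosomal passenger complex, had 3.86, 5.83, 2.998 and 6.82 CPM with osteopontin, against 2.08, 3.11, 4.07 and 2.56 CPM in null libraries. Osteopontin 1 and A lay below null A, and osteopontin A also lay below null 2. The log2 fold change was 0.72 ± 0.39 (SE) with an edgeR p of 0.0850 before adjustment. Aurka, which matures the spindle poles, had a fitted value of 0.58 (95% interval -0.56 to 1.71), Birc5 (survivin, the partner of Aurkb) 0.17 and Plk1 (polo-like kinase) 0.02. All 4 intervals included 0.

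Spindle checkpoint and anaphase genes were scarce. Cdc20, the activator of the anaphase-promoting complex, had 7.39, 5.25, 2.71 and 3.94 CPM with osteopontin and 3.998, 6.09, 6.86 and 9.57 CPM in null libraries, a log2 fold change of -0.46 ± 0.36 (SE). Bub1b, which encodes the checkpoint protein BubR1, ranged over 4.17 to 7.88 CPM with osteopontin and 3.88 to 6.94 CPM in null libraries. Ube2c, a ubiquitin-conjugating enzyme that works with the anaphase-promoting complex, had 1 read in osteopontin B and in null B and reached 2.73 CPM in null A. Bub1 had 31, 7, 0 and 0 reads with osteopontin and 0, 16, 52 and 24 reads in null libraries, too few for a fold change to be read from it.

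Among spindle and centromere genes, Stmn1 (chr4:134468320-134473843), encoding the microtubule-destabilising protein stathmin, had 6.51, 7.22, 4.99 and 2.86 CPM with osteopontin, against 7.04, 8.35, 10.4 and 8.55 CPM in null libraries. The groups touched only where osteopontin 2 lay above null 1. Its log2 fold change was -0.67 ± 0.30 (SE) with an edgeR p of 0.0439 before adjustment and 1.00 after it. Cenpe, a kinesin that captures kinetochores, had 3.91, 4.10, 4.03 and 0.893 CPM with osteopontin and 3.41, 3.70, 6.58 and 7.98 CPM in null libraries, so that its lower mean rested on osteopontin B and on null A and B. Kif11, Kif20a and Tpx2, which build and organise the spindle, had fitted values of -0.19, -0.13 and -0.42, with intervals on both sides of 0. Cenpa was well measured, at 37.7 ± 4.53 CPM with osteopontin and 35.4 ± 4.83 CPM in null libraries (SD, n = 4 each), and its interval (-0.19 to 0.37) left out a 1.5-fold change.

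Mki67 (chr7:135689784-135716361), the source of the Ki-67 antigen of cycling nuclei, had 32.0, 36.4, 48.8 and 27.4 CPM with osteopontin, against 38.2, 40.3, 52.7 and 37.1 CPM in null libraries. Library A was the highest in each group, and the log2 fold change was -0.22 (95% interval -0.58 to 0.14). Top2a, the topoisomerase that untangles sister chromatids, had 13.1, 14.2, 15.7 and 11.7 CPM with osteopontin and 9.05, 17.7, 21.1 and 12.1 CPM in null libraries, with an interval of -0.63 to 0.38. The groups overlapped for both genes.

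How much could have been seen differed between members by level. The 95% interval lay within a 1.5-fold change in either direction for 11 members (Cdt1, Mcm2 to Mcm7, Pcna, Rrm1, Cenpa and Mki67), which is 31.4% of the list against 43.3% of all tested genes. For 14 members it spanned more than a 4-fold range. Within groups, the SD of log2(CPM + 0.1) had a median of 0.135 over the 5 members between 50 and 200 CPM, 0.188 over the 7 between 10 and 50 CPM, 0.559 over the 17 between 2 and 10 CPM and 1.37 over the 6 under 2 CPM. Over all tested genes in the same ranges the medians were 0.124, 0.217, 0.508 and 1.19. Poisson counting alone gives Ccna2 a coefficient of variation of 20.9% at its mean of 23.0 reads in osteopontin libraries and 8.57% at 136 reads in null libraries, while the libraries varied by 111% with osteopontin and 16.7% without. For Mcm6 counting gives 1.15% with osteopontin and 1.11% without, and the libraries varied by 8.06% with osteopontin and 7.83% without.

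**Figure D3:**
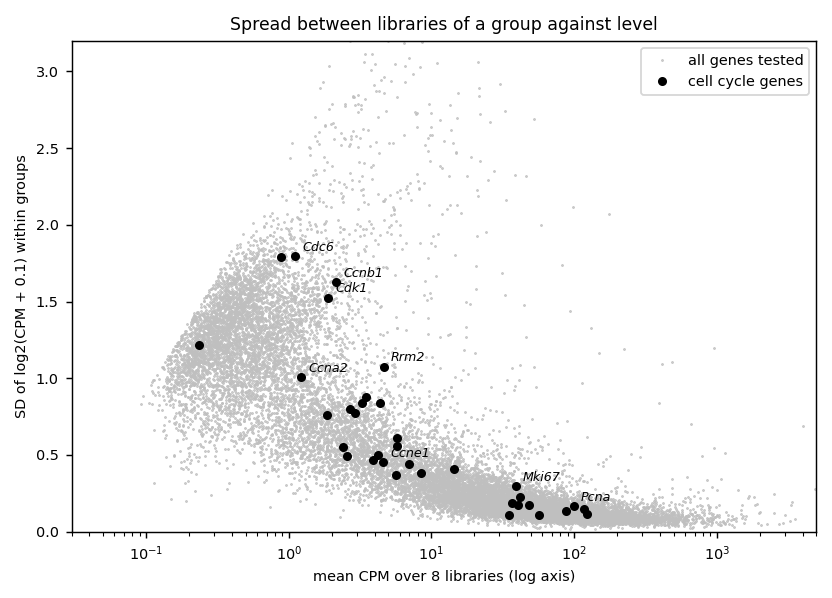
SD of log2(CPM + 0.1) within groups (pooled over both groups) against mean CPM over 8 libraries on a log axis, for all tested genes up to an SD of 3.2 (grey) and the 35 cell cycle genes (black). The black points follow the grey cloud, with Cdc6, Ccnb1 and Cdk1 in its upper part.

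Osteopontin B held the lowest value of 15 of the 35 members. Of the 21 members that averaged 1 to 10 CPM it was the lowest for 8, or 38.1%, against 22.7% of the 4450 tested genes in that range, and it was the highest for 5 of them (23.8%, against 19.8%). It held fewer than 3 reads of 4 of the 35 members, osteopontin A and null B of 2 each, and null 1 of 1. Of the 4450 tested genes at 1 to 10 CPM, 5.91% had fewer than 3 reads in osteopontin B, 3.57% in osteopontin A, 5.66% in null B and 0.787% in null 1. That range leaves out Bub1 and Ube2c, which averaged less. Summed over all 35 members, the libraries had 828, 802, 823 and 743 CPM with osteopontin, against 816, 829, 844 and 884 CPM in null libraries 1, 2, A and B. Osteopontin B also had the fewest reads of the 8 libraries (49108969, against 57492806 to 71399847 in the others) and the lowest sum of 6 B cell marker genes, at 284 CPM, beside 521 to 779 CPM in the other osteopontin libraries and 623 to 821 CPM in null libraries. All 6 of those markers were fitted lower with osteopontin. The same library stood apart among the osteopontin libraries in the summed markers of enterocytes (72.4 CPM, beside 39.8 to 43.5 CPM in the other 3), endothelial cells (108 CPM, beside 57.6 to 82.9 CPM) and macrophages and dendritic cells (9.70 CPM, beside 15.3 to 40.8 CPM). In null libraries these lists summed to 41.4 to 59.5 CPM, 75.4 to 118 CPM and 9.02 to 38.8 CPM. Among null libraries, null B held the highest enterocyte sum (59.5 CPM) and endothelial sum (118 CPM). Null 2 was close to it in the endothelial sum (114 CPM), and Pecam1 made up most of both (84.9 CPM in null B and 79.8 CPM in null 2). Null B also held the lowest sum of macrophages and dendritic cells (9.02 CPM), so in these lists both B libraries were extreme in the same direction within their group. In the B cell markers they went opposite ways, with osteopontin B the lowest of all 8 libraries (284 CPM) and null B the highest (821 CPM). The sum over the 35 members did the same (743 CPM in osteopontin B and 884 CPM in null B). The part of these markers in the members' values was not tested. Without osteopontin B, 37 genes and 0 members were called, and the members' median log2 fold change was -0.02.

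**Figure D4:**
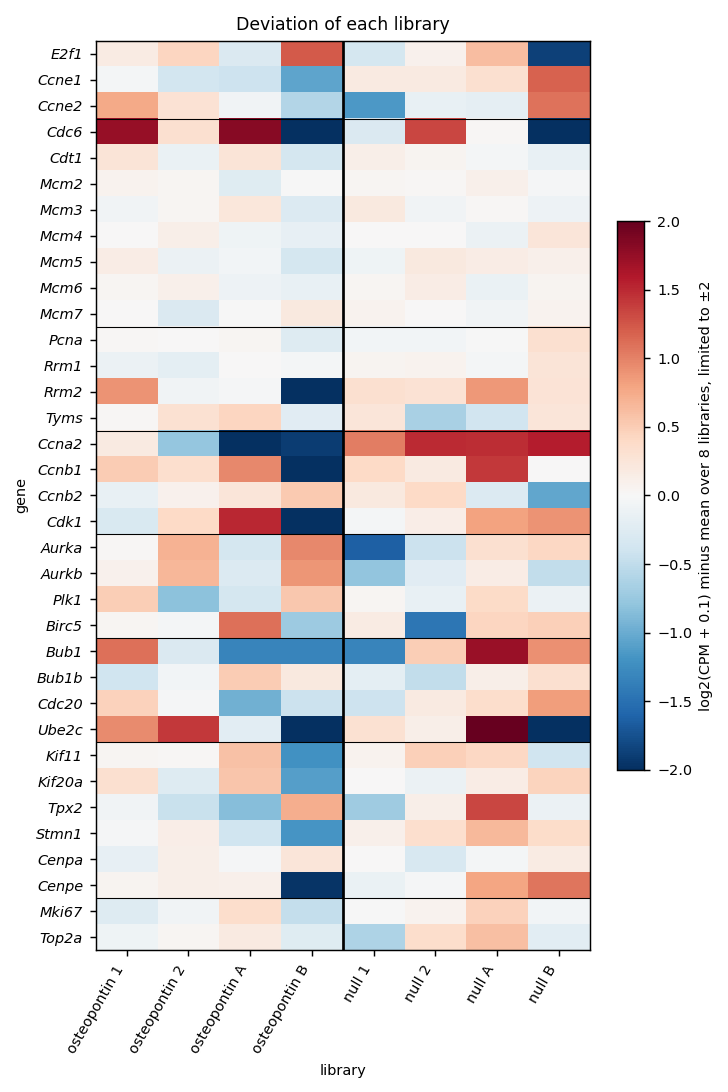
Deviation of each library from the mean over 8 libraries on the log2(CPM + 0.1) scale, limited to ±2 (colour), for the 35 genes in rows and the 8 libraries in columns, osteopontin left of the black line and null right of it. The MCM rows are pale throughout, and most of the dark blue cells left of the line are in column B.

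Markers of the labelled cell type were abundant, beside those of B and plasma cells. Markers of T cells and intraepithelial lymphocytes (Ptprc, Cd3e, Cd3g, Cd8a, Itgae and Gzma) summed to between 5593 and 6298 CPM with osteopontin and between 5381 and 6063 CPM in null libraries. Ptprc encodes the pan-leukocyte protein CD45 and is not particular to T cells. It made up 2061 to 2170 CPM of the sums with osteopontin and 1894 to 2045 CPM in null libraries. Plasma cell genes (Jchain, Igha and Igkc) summed to 3795 to 8452 CPM with osteopontin and 2991 to 9248 CPM in null libraries, in both groups highest in library A, where Mki67 was highest too. Their part in the values of Mki67 was not tested. Of 5 crypt stem and progenitor markers, whose cells divide fast, 1 passed the filter on low counts. They summed to 0.0294 to 0.394 CPM with osteopontin and 0.801 to 8.84 CPM in null libraries, of which Smoc2 made up 6.14 CPM in null 1 and 7.81 CPM in null A. The stem cell markers Lgr5 and Ascl2 stayed at or under 0.489 CPM in every library, and Olfm4 was at 0 in all 8. Fibroblast markers reached 289 CPM in null 1 and 151 CPM in null A, against 6.65 to 24.2 CPM in osteopontin libraries and 6.30 to 10.0 CPM in the other null libraries. Without null 1 and A, 0 members were called and the members' median log2 fold change was -0.10.

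Reads of some members lay on transcripts that do not encode the protein. Over the 35 members the median share of reads on coding transcripts was 94.6%. For the 16 members with a coding and at least 1 other transcript and a mean of at least 5 CPM it was 95.3%, beside 92.6% over all 8868 tested genes of that kind. In Cenpa it was 15.7%, with 34.4% on transcripts annotated for nonsense-mediated decay and 49.97% on transcripts with a retained intron, and 1.27% of those genes had a share as low. The coding share of Cenpa was 16.8%, 10.3%, 21.4% and 2.47% in osteopontin libraries and 21.7%, 16.1%, 16.3% and 20.4% in null libraries. Of the 43.9 TPM of the gene, 6.83 TPM were on its coding transcripts. In Tyms the coding share was 43.1%, from 0.00% in osteopontin B to 83.8% in null 1.

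Cdt1 was the only member whose coding share did not overlap between groups. Coding transcripts took 77.2%, 73.0%, 56.5% and 82.4% of its reads in osteopontin libraries, against 95.2%, 88.0%, 85.5% and 84.0% in null libraries, and retained-intron transcripts made up most of the rest. It was 1 of the 16 members in the comparable set, where 2.81% of 8866 genes did not overlap in either direction (2.01% lower and 0.801% higher with osteopontin). The share itself was not tested, and osteopontin B and null B lay close together. Which coding isoform carried the reads changed between libraries for several scarce members: the 1 read of Ccnb1 in osteopontin B and 96.6% of its reads in null B were on a coding transcript of 2140 bases, which had 0.00% in the other 6 libraries. TPM depends on transcript length and CPM does not, and Tpx2 stood at 12.4 TPM and 4.32 CPM in osteopontin B, against 0.571 TPM and 1.39 CPM in osteopontin A.

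**Figure D5:**
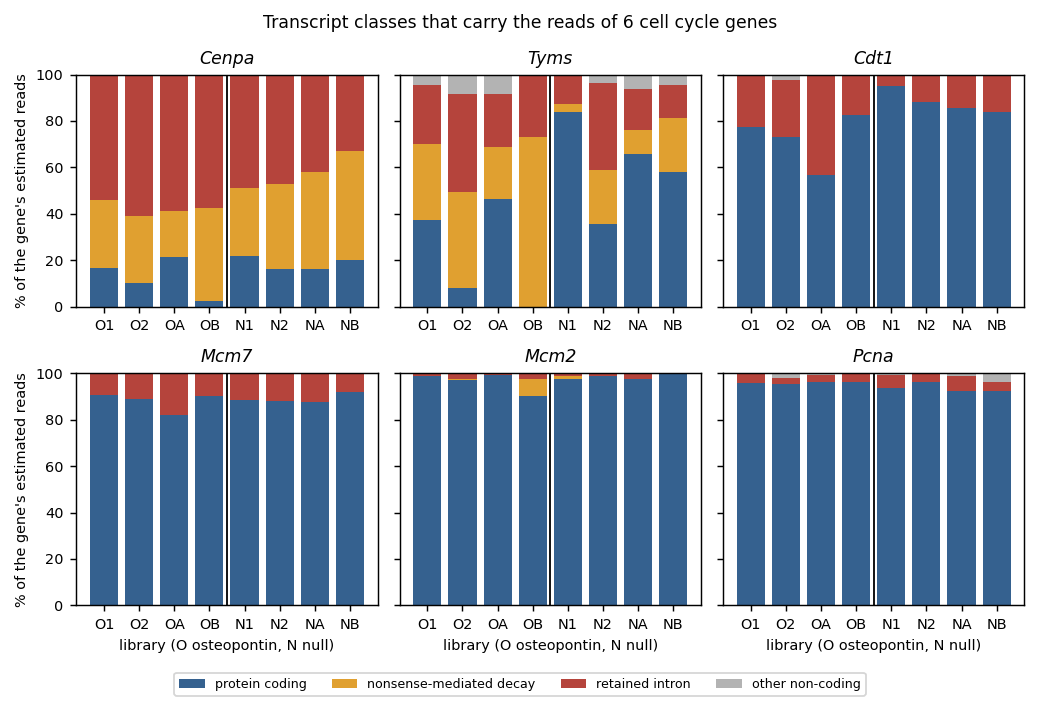
Share of each gene's estimated reads (%, stacked bars from 0 to 100) on protein-coding, nonsense-mediated decay, retained-intron and other non-coding transcripts in each library (O osteopontin, N null) for 6 genes. Cenpa bars are mostly red and yellow in all 8 libraries, Tyms bars vary from library to library, and the blue part of Cdt1 is lower in every O bar than in every N bar.

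The wider cell cycle programme was read from 114 other genes in 4 lists. All 114 were tested and 0 were called, with 45 fitted higher and 69 lower in osteopontin cells, and 6 had an unadjusted edgeR p under 0.05, against 3.93% of all genes. Of 32 other DNA replication genes 16 were fitted higher and 16 lower, with a median log2 fold change of 0.00 and no gene at an unadjusted p under 0.05. Mcm10, which activates the helicase, had the largest value of those named, -1.07, with 1.80, 1.66, 0.942 and 1.28 CPM with osteopontin and 1.25, 1.13, 3.39 and 6.16 CPM in null libraries. The lower mean rested on null A and B, and the value ran from -2.10 to 0.54 over the alternatives. Dut, which clears dUTP, had a fitted value of -0.28, Prim1, a primase subunit, -0.21 and Pole, the catalytic subunit of DNA polymerase epsilon, 0.25, and the groups of all 3 overlapped. Of 49 other mitosis genes 14 were fitted higher and 35 lower, with a median of -0.11, the same to 2 decimals as that of the 35 members. The mitosis genes with the smallest p were Ndc80, a kinetochore component, at 5.17, 4.43, 4.75 and 3.45 CPM with osteopontin and 8.68, 4.99, 7.82 and 11.1 CPM in null libraries (log2 fold change -0.87, edgeR p 0.0113 before adjustment and 1.00 after it), Tacc3, a spindle microtubule protein (-0.73), Plk4, the kinase of centriole duplication (-0.50), and Bub3, a checkpoint protein (-0.23). Plk4 was the gene of these 4 whose groups did not overlap, with 7.59 to 11.8 CPM with osteopontin and 13.7 to 15.7 CPM in null libraries. It was the only 1 of the 49, where 3.47% of all tested genes did not overlap in either direction.

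Of 20 other G1 regulators 9 were fitted higher and 11 lower. E2f7, a repressor in the E2F family, had 3.21, 3.88, 3.74 and 2.25 CPM with osteopontin, against 1.42, 1.34, 2.13 and 1.75 CPM in null libraries, a log2 fold change of 0.98 ± 0.45 (SE) with an edgeR p of 0.0463 before adjustment. Groups did not overlap for 3 genes of this list, against 3.47% of all tested genes. These were E2f7, Cdk4, the kinase partner of D-type cyclins, with 67.2 to 75.3 CPM with osteopontin and 76.0 to 83.2 CPM in null libraries (log2 fold change -0.14), and Ccnd3 (cyclin D3), named for this after its values were seen, with 184 to 206 CPM with osteopontin and 176 to 182 CPM in null libraries (0.09). E2f2, an activating E2F factor, had a fitted value of -0.59 and Cdc25a, a phosphatase that activates Cdk2, -0.28. None of these 5 passed the test after adjustment.

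The 13 CDK inhibitor and quiescence genes ranged from 1.56 to 408 TPM (mean of 8 libraries), and 3 of them, Cdkn1b, Btg1 and Btg2, stood above every member on that scale. Cdkn1b, encoding the CDK inhibitor p27, averaged 703 CPM with osteopontin and 686 CPM in null libraries, and 341 TPM over all libraries. It was named after its values were seen. Btg1, an antiproliferative gene of resting lymphocytes, averaged 772 ± 33.9 CPM with osteopontin and 835 ± 47.9 CPM in null libraries, and Btg2, its relative, 273 ± 47.5 CPM with osteopontin and 322 ± 27.6 CPM in null libraries (SD, n = 4 each). Klf2, a transcription factor of quiescent T cells, averaged 60.2 CPM with osteopontin and 69.6 CPM in null libraries, and Cdkn2c, the inhibitor p18, 9.57 CPM with osteopontin and 12.0 CPM in null libraries. The list had 6 fitted higher and 7 lower, and their groups overlapped for every gene.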

How the data were processed

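The authors deposited, per the file headers, 1 Salmon transcript table per library with estimated counts, TPM and an effective length in bases for 133618 transcripts of 52661 genes. The submitters' processing notes name Salmon without a version. Which build and which transcript set it was run on is not given in the sources used here. Per the labels, RNA came from a micro-scale column kit and the libraries were stranded. Salmon shares reads between similar transcripts by estimation, so single isoforms are less certain than gene sums, and whether strand was used in counting is not stated. Deposited estimated counts were summed per gene and rounded, and the authors' TPM were summed per gene without a test.

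Library totals were 49108969 to 71399847 estimated reads, so that 3 reads correspond to 0.0420 to 0.0611 CPM, which covers counting error only. Osteopontin and null libraries (4 each) were compared with edgeR 4.0.16 (robust quasi-likelihood F test, two-sided, group as the only term, filterByExpr with a minimum count of 10, TMM) and Benjamini-Hochberg adjustment over 18631 genes at 0.05. Each SE was taken as the log2 fold change over the root of its F value, with 95% intervals from the moderated degrees of freedom. The procedure was checked on simulated counts in which known changes were placed only in genes above a set mean CPM. The check therefore did not cover scarcer members such as Ccna2 and Cdc6. CPM are on TMM-scaled totals. Coordinates are those of GENCODE release M21 (GRCm38) for the same gene identifiers. Promoter windows and sequences are from RefSeq (GRCm38.p6), and the words searched were chosen from textbook knowledge.

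The members, the 4 other gene lists, the marker lists and the tests were chosen with earlier results of these data known. The result of 1 marker list is not reported here. All 35 members are named, and of each other list the 4 genes with the smallest unadjusted p. Alternatives were DESeq2 1.42.0, limma 3.58.1 (voom), other scalings, no filter, an effective length offset, a replicate block, the naming (digit or letter) as a covariate or as subsets, and leaving libraries out. Columns of all 8 tables were used, and none was left unmapped.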

Additional observations from a re-analysis of the deposited data

Results flagged for a closer look

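Both groups of all 35 genes were screened for a library that stands apart from the other 3, which by chance happens in about 1 of 20 groups. Of 70 groups, 5 held such a library. Ccne1 had 9.558 CPM in null B, beside 4.707 to 5.229 CPM in the other null libraries. Pcna had 82.45 CPM in osteopontin B, beside 99.22 to 101.6 CPM in the other osteopontin libraries, and 124.3 CPM in null B, beside 95.19 to 98.23 CPM in the other null libraries. Cenpe had 0.8932 CPM in osteopontin B, beside 3.915 to 4.104 CPM. Rrm2 had 7.194 CPM in null A, beside 4.718 to 4.863 CPM. Of these 5 values, 4 are in a library named B. Without both B libraries, 0 members and 49 genes were called by edgeR, and the fitted log2 fold change of Pcna was 0.06.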

How the results depend on the processing

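In each of 20 alternatives, 0 of 35 members and 0 of the 114 other cell cycle genes were called, and the smallest adjusted p of a member was 0.291 (DESeq2, Ccna2). The count over all genes, 0 by edgeR, was 76 with DESeq2, 4 with no filter, 16 with only libraries 1 and 2, 1 with only libraries A and B, 0 to 37 when 1 library was left out (37 without osteopontin B), and 49 without both B libraries. The members' median log2 fold change, -0.11, was 0.055 with only libraries 1 and 2. With the replicate block it was -0.071 and 0 genes were called. Libraries of the same name deviated together with r of 0.0437 to 0.123, and 7 of 8 libraries correlated best with their own name. Only the r of the B libraries exceeded 0.1, the cut-off used, so the names were not taken as pairs. Whether they mark pairs is not settled by this. No sign change occurred for 11 members, Ccne1 and Ccna2 among them. With only libraries 1 and 2 the log2 fold change changed sign for Cdt1 (-0.0081), Mcm2 (0.021), Mcm4 (0.055), Pcna (0.069), Rrm2 (0.20), Ccnb1 (0.15), Ccnb2 (-0.34), Cdk1 (0.053), Bub1 (1.08), Cdc20 (0.33), Ube2c (1.10), Kif20a (0.12), Cenpe (0.17) and Top2a (0.033). With only A and B it did for Ccne2 (-0.94), Mcm3 (0.034), Mcm7 (0.092) and Birc5 (-0.0061). With the effective length offset it did for Ccne2 (-0.50), Mcm2 (0.20), Ccnb1 (0.19), Cdk1 (0.15), Birc5 (-0.64), Bub1 (0.036), Tpx2 (1.00) and Cenpa (-0.030). The block reversed Plk1 (-0.080) and Ube2c (0.045), and limma voom Plk1 (-0.12) and Ube2c (0.17). Without both B libraries the sign changed for E2f1 (-0.045), Mcm3 (0.018), Mcm4 (0.046), Pcna (0.059), Ccnb2 (-0.073), Cdk1 (0.40), Plk1 (-0.24) and Kif20a (0.24), and without null 1 and A for Ccne2 (-0.44), Mcm3 (0.077), Ccnb1 (0.14) and Ube2c (1.40). With 1 library left out, values ranged over -0.22 to 0.64 for Ccne2, -0.054 to 0.14 for Cdt1, -0.11 to 0.055 for Mcm3, -0.12 to 0.0037 for Mcm4, -0.11 to 0.049 for Mcm7, -0.77 to 0.032 for Ccnb1, -0.99 to 0.23 for Cdk1, -0.18 to 0.23 for Plk1, -0.30 to 0.39 for Birc5, -0.041 to 0.27 for Bub1b, -0.96 to 0.90 for Ube2c, -0.47 to 0.063 for Kif11, -0.39 to 0.11 for Kif20a, -0.82 to 0.16 for Tpx2 and -0.31 to 0.083 for Top2a. The cause was not tested. With 4 libraries a group, members under 10 CPM could not be placed within a 1.5-fold change.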
